A study of Homo sapiens with 6 samples.

Results

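Collagens, laminins and the glycoproteins that join them make up the scaffold that surrounds cells, and 44 such genes were measured among the 14199 genes tested in SW480 colon carcinoma cells after knockdown of gankyrin. They are the genes with symbols of the collagen, laminin, matrilin, nidogen, fibulin and fibrillin families, together with SPP1, FN1, HSPG2, AGRN, TNC, SPARC and THBS1 to THBS4. A gene counted as measured when its brightest probe set had a mean log2 signal above 3.6 over the 6 arrays. Of 77 such genes with a probe set of their own, 44 passed and 33 did not. Both groups compared were of SW480, an established line from a human colon adenocarcinoma: cells given an shRNA (short hairpin RNA) against gankyrin for 4 days (n = 3 arrays), and cells given a non-targeting shRNA for 4 days (n = 3 arrays). The line was grown in medium with serum, and both groups are shRNA-bearing cells. The labels describe a single knockdown shRNA group, and no rescue or second hairpin is analysed here. Nothing in them ties the replicates to separate cultures, so p-values here reflect array-to-array spread that may be purely technical.

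Collagen chains wind into triple helices, and collagen IV with laminin forms the sheets of the basement membrane under epithelia. Laminins are trimers of an alpha, a beta and a gamma chain that bind integrins on the cell. Nidogen, perlecan and agrin bind or link these sheets, while fibronectin, osteopontin, tenascin and the thrombospondins are soluble or matrix-bound ligands that act on the same receptors. Epithelial tumour cells make much of their own basement membrane protein, whereas the fibrillar collagens of the gut wall come mainly from fibroblasts.

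PSMD10, which encodes gankyrin, a chaperone of proteasome assembly, had log2 signals of 6.58, 6.47 and 6.30 on the knockdown arrays and 10.19, 10.23 and 10.15 on the control arrays, so it was far lower on every knockdown array. NFIL3, which a sentence of the series design names in place of gankyrin, averaged 9.07 ± 0.05 in knockdown and 9.33 ± 0.13 in control (SD, n = 3 each). It fell by 0.26 ± 0.07 (log2 ± SE), with an adjusted p of 0.0281 in limma, the test used below, and its groups did not overlap. Control replicate 3 stood apart from the other 5 arrays in the gap between its 3′ and 5′ control signals. The 3′ minus 5′ difference of the ACTB control probe sets was 1.82 on that array and 0.43 to 0.53 on the others, and that of GAPDH was 0.56 against -0.11 to 0.00. Results below are therefore also given without it. The colon epithelial genes EPCAM (12.20 in knockdown and 12.20 in control), KRT18 (12.99 and 13.05) and KRT8 (10.99 and 11.11) had high signals. CDX2 and GPA33 lay at or below 4.19 in both groups, under the 4.48 that bounds 95% of the mean signals of 107 olfactory receptor probe sets, taken here as the low end of the scale.

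**Figure D1:**
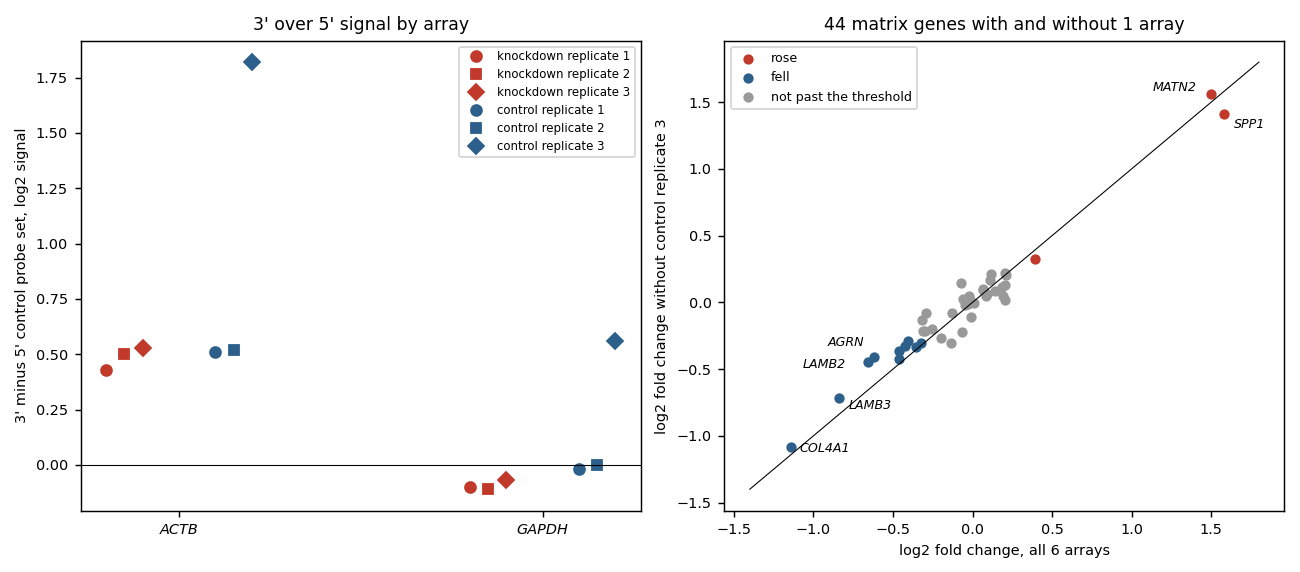
Left, the difference between the 3′ and 5′ control probe sets of ACTB and GAPDH (log2 signal), by array: control replicate 3 lies above the other 5 arrays for each. Right, the log2 fold change of the 44 matrix genes with all 6 arrays (x) and without control replicate 3 (y), with the line of equal values: the 10 genes that fell lie above the line, at smaller falls.

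Of the 44 matrix genes, 10 fell and 3 rose after knockdown at an adjusted p under 0.05 in limma (a linear model fitted over all genes). Those that fell were COL4A1, LAMB3, LAMB2, AGRN, LAMA5, COL9A3, LAMC1, LAMB1, FN1 and HSPG2, most of them parts of the basement membrane. Those that rose were SPP1 (osteopontin), MATN2 (matrilin-2) and THBS1 (thrombospondin-1). Falls made up 22.7% of the matrix genes and 14.3% of all genes tested, rises 6.82% and 8.13%, and both together 29.5% and 22.5%. The median log2 fold change was -0.04 for the matrix genes and -0.02 for all genes. Groups were fully apart for 18 matrix genes, or 40.9%, against 40.3% of all genes, so that share is that of the arrays at large.

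Calls lay mostly among the brighter genes. Of the 15 matrix genes with a mean signal above 6, a limit chosen after the values were seen, 8 fell and 3 rose, or 73.3% called, against 29.5% of the 8858 genes above that limit. Of the 29 dimmer ones 2 fell and 0 rose in limma, with 4 lower and 0 higher at an unadjusted p under 0.05. That is 6.9% called, against 10.8% of the 5341 genes at or under the limit. Means under the low-end value of 4.48 were found for 14 members, COL4A1 among them, and at that level signal and background cannot be told apart. At the filter itself, COL10A1 (3.675) and COL8A2 (3.77) were just inside, and COL12A1 (3.595) and COL5A1 (3.59) just outside.

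All 13 calls held without control replicate 3, with adjusted p-values of 3.37e-10 to 0.0140 in limma. The counts were then 10 falls, or 22.7% against 16.6% of all genes, and 4 rises, the added rise being COL4A2. Those 4 of 44 are a smaller share than the 12.7% of all genes that rose. In each of the 10 genes that fell, control replicate 3 had the highest signal of the control arrays or tied with it. Leaving that array out therefore had to make each fall smaller. The same array was highest, ties included, in 79.5% of all 2035 genes that fell. Its part in the size of the falls was not tested further. With 3 arrays against 3, an exact two-sided permutation test of a single gene cannot give less than p = 0.1, and each called gene reached that value.

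**Figure D2:**
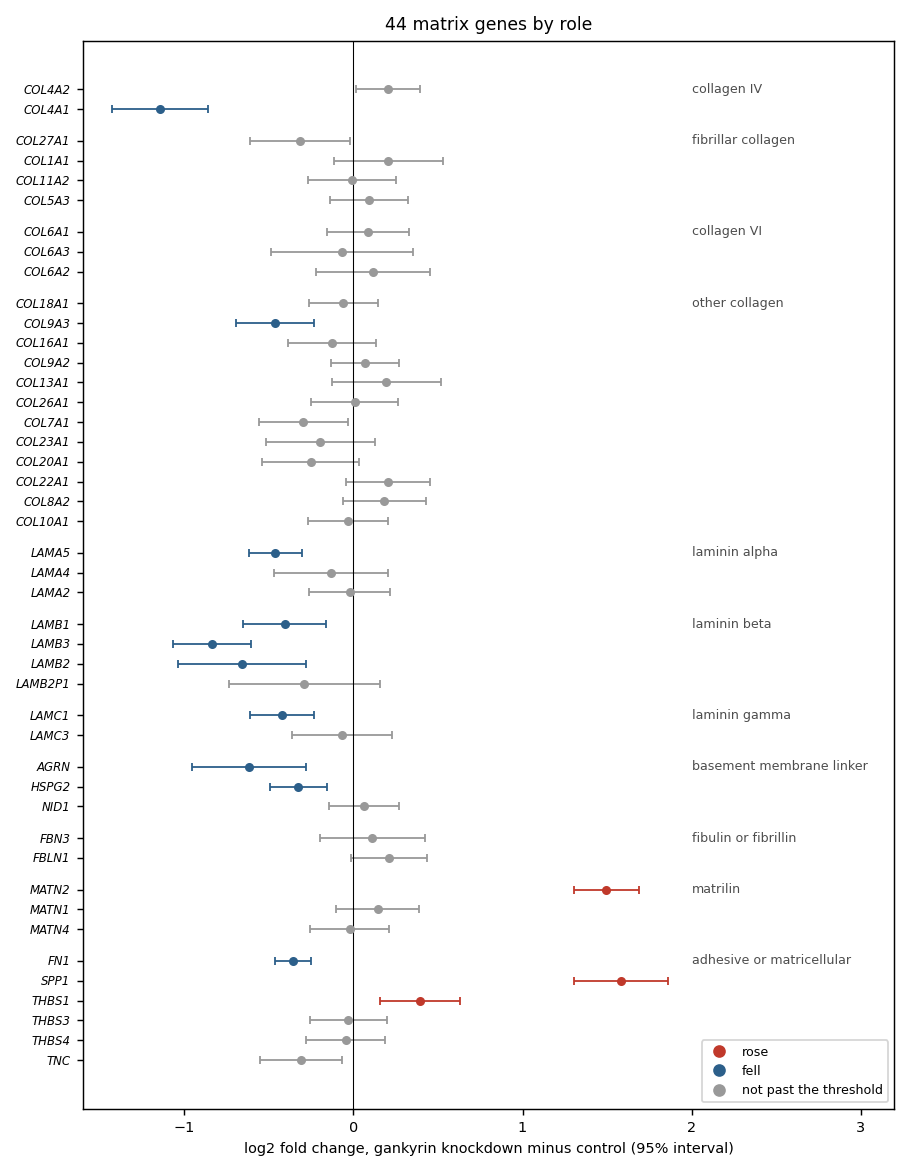
Log2 fold change (knockdown minus control, x) of the 44 matrix genes with 95% intervals from limma, grouped by role and sorted by signal within a role. Falls (blue) gather in the laminins and in AGRN and HSPG2, while most collagens have intervals that include 0, and SPP1 and MATN2 (red) stand far to the right at 1.58 and 1.497.

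Among laminins, 5 of 9 measured genes fell and 0 rose (limma), or 55.6% against the 14.3% of all genes that fell. At an unadjusted p under 0.05 the count of higher laminin genes was also 0. The 9 include a pseudogene, LAMB2P1. Of the laminins that fell, all but LAMB2 had a mean above 6, a range in which 18.4% of all genes fell, against 7.53% of dimmer genes. LAMB3, the beta chain of the laminin that anchors epithelial cells at hemidesmosomes, had log2 signals of 7.96, 7.96 and 7.85 in knockdown and 8.57, 8.71 and 9.0 in control. The groups were apart by more than the spread within either. LAMB3 fell 1.79-fold (log2 fold change -0.84 ± 0.10 SE, limma adjusted p = 0.000527, and -0.72 without control replicate 3).

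LAMA5, LAMB1 and LAMC1 encode chains that assemble together into the main laminin of adult epithelial basement membranes, and all of them fell. LAMA5 stood at 7.73, 7.68 and 7.70 on the knockdown arrays, against 8.15, 8.10 and 8.25 on the control arrays, with a gap several times the spread of either group. It fell 1.38-fold (log2 -0.46 ± 0.07 SE, limma adjusted p = 0.00166). LAMC1 had 8.77, 8.69 and 8.63 in knockdown and 9.03, 9.02 and 9.31 in control. It fell 1.34-fold (log2 -0.42 ± 0.09 SE, limma adjusted p = 0.00665), and its second probe set gave -0.34.

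LAMB1 was the brightest laminin probe set, at 9.48, 9.62 and 9.81 in knockdown and 9.86, 9.99 and 10.28 in control. The highest knockdown array came within 0.05 of the lowest control array, so the groups barely separate on this probe set. LAMB1 fell by 0.41 ± 0.11 (log2 ± SE, limma adjusted p = 0.0251). With knockdown replicate 1 or 2 left out it no longer passed (limma adjusted p = 0.108 and 0.0868), while the dimmer LAMB1 probe set gave -0.41 with a clear gap between groups, at 8.88, 9.0 and 9.04 in knockdown and 9.26, 9.45 and 9.44 in control.

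LAMB2, a beta chain better known from muscle and kidney basement membranes, had 4.51, 4.75 and 4.69 in knockdown and 4.98, 5.22 and 5.73 in control, all near the low end of the scale. It fell by 0.66 ± 0.17 (log2 ± SE, limma adjusted p = 0.0207), and by 0.45 without control replicate 3. Leaving out knockdown replicate 1, 2 or 3 ended the call (limma adjusted p = 0.0885, 0.0542 and 0.0661). Its pseudogene LAMB2P1, whose transcripts can share probes with it, was at -0.29 and did not pass. The remaining laminin genes, LAMA2, LAMA4 and LAMC3, had mean signals of 3.89 to 4.67 and log2 fold changes of -0.13 to -0.02, none past the threshold.

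Of the 21 collagen genes measured, 2 fell and 0 rose in limma, or 9.52% called against 22.5% of all genes, while 4 were lower and 1 higher at an unadjusted p under 0.05. Collagen probe sets were mostly dim: 16 of them had a mean of 6 or less, a level at which 10.8% of all genes were called. COL4A1, an alpha chain of basement membrane collagen IV, changed most, with 3.76, 4.03 and 3.81 in knockdown and 4.77, 5.13 and 5.13 in control. Its measured fall was 2.21-fold (log2 -1.14 ± 0.13 SE, limma adjusted p = 0.000303). The size of this fall is uncertain, because the knockdown mean, 3.87, is below 4.48, the low end of the scale. A second COL4A1 probe set stayed below the filter, at 3.04, 2.98 and 3.49 in knockdown and 3.45, 3.30 and 3.24 in control, where the groups overlap.

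COL4A2 encodes the partner chain in the same collagen IV trimer and did not fall. Its signals were 6.84, 6.89 and 6.90 in knockdown and 6.55, 6.76 and 6.71 in control, a difference of 0.20 ± 0.09 (log2 ± SE, limma adjusted p = 0.118). Every knockdown array was above every control array. The gene passed as higher without control replicate 3 (0.22, limma adjusted p = 0.0497) and as the average of both probe sets (0.48, limma adjusted p = 0.0319). Under the other 13 of 15 alternative settings it did not pass. Its dimmer probe set gave 0.76 (adjusted p = 0.0925, limma fit over probe sets), and 0.46 without control replicate 3. That array was at 4.42 on this probe set, against 5.23 and 5.40 on the other control arrays.

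COL4A1 and COL4A2 lie head to head and are transcribed away from each other. In the RefSeq annotation of GRCh38.p14 their start sites on chromosome 13 are 127 bases apart, at 110307157 for COL4A1 on the minus strand and 110307284 for COL4A2 on the plus strand, and their promoter windows (250 bases before to 50 after the start) share 226 bases. The window of COL4A2, chr13:110307034-110307333 on the plus strand, is shown because genes read from a single stretch of DNA had differences of opposite sign, that of COL4A2 short of the threshold. Capitals mark its CCAAT box and its GC box (GGGCGG), its matches among the 5 motifs searched, both of which fall in the stretch shared with COL4A1.
COL4A2: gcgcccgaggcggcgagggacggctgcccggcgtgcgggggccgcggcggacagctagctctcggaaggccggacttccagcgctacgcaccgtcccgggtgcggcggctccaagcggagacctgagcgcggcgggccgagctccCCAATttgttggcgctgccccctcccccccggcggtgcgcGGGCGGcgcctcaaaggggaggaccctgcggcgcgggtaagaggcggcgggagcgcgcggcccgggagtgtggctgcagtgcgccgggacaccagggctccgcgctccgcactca
Over both strands, CCAAT was in 34.6% and GGGCGG in 45.0% of all 35116 RefSeq promoter windows of this length, so neither sets this stretch apart.

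COL9A3, a chain of collagen IX that sits on the surface of cartilage fibrils, was the other collagen that fell, at 6.20, 6.10 and 6.21 in knockdown and 6.48, 6.59 and 6.83 in control. The groups do not overlap, and the fall was 1.38-fold (log2 -0.46 ± 0.10 SE, limma adjusted p = 0.0111). With knockdown replicate 2 left out it no longer passed (limma adjusted p = 0.0573). COL9A2, another chain of that trimer, differed by 0.07 and did not pass.

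The other 19 collagens had log2 fold changes of -0.32 to 0.21, and none passed. The brightest were COL27A1, a fibrillar collagen (7.98 ± 0.06 in knockdown and 8.30 ± 0.31 in control, SD, n = 3 each), COL1A1 (7.22 ± 0.05 and 7.01 ± 0.34) and COL18A1, whose end fragment is endostatin (6.74 ± 0.02 and 6.80 ± 0.15). The difference of COL27A1, -0.32 with all arrays, was -0.135 without control replicate 3, at 8.66 the highest of its arrays. COL1A1, the main chain of fibroblast collagen, was bright on a single probe set ending in _x_at, a class that can bind other transcripts. Its other 4 probe sets had means of 2.005 to 3.76, at the low end of the scale. Of those, 1 passed the filter and differed the other way, at -0.57 (limma adjusted p = 0.0357 in the fit over probe sets). The level and the direction of COL1A1 are therefore uncertain. The 3 collagen VI chains COL6A1, COL6A2 and COL6A3 had means of 3.945 to 4.33 and differences of -0.07 to 0.12.

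**Figure D3:**
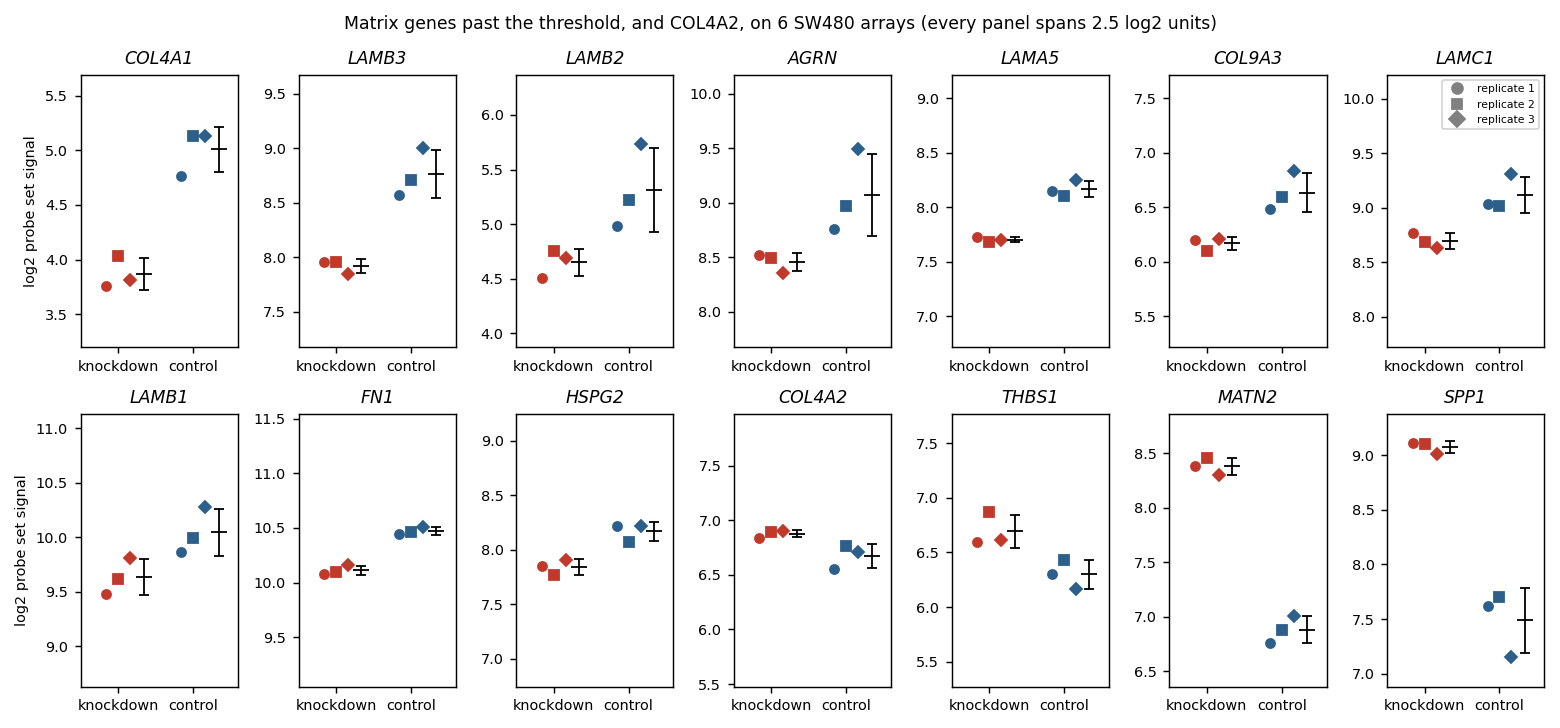
Log2 probe set signal on each of the 6 arrays for the 13 matrix genes past the threshold and COL4A2, knockdown (red) left of control (blue), with the mean and SD of 3 arrays in black. Each panel spans the same range of log2 units: SPP1 and MATN2 are higher on every knockdown array, COL4A1 and LAMB3 lower, and control replicate 3 (blue diamond) is the outermost control in AGRN, LAMB2 and SPP1.

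The heparan sulfate proteoglycans AGRN and HSPG2 fell on their brightest probe set, while COL18A1, a collagen that also carries heparan sulfate, was at -0.06 and did not pass. AGRN (agrin), which binds laminin and dystroglycan, had 8.52, 8.49 and 8.36 in knockdown and 8.76, 8.97 and 9.49 in control, so the gap to the nearest control array is small beside the spread of the controls. It fell by 0.62 ± 0.15 (log2 ± SE, limma adjusted p = 0.0168), and by 0.41 without control replicate 3. Leaving out knockdown replicate 1, 2 or 3 ended the call (limma adjusted p = 0.0516, 0.0568 and 0.0774), and a probe set of neither the _x_at nor the _s_at class had the opposite sign (0.13, not past the threshold). HSPG2 (perlecan) averaged 7.84 ± 0.07 in knockdown and 8.17 ± 0.09 in control (SD, n = 3 each), and fell by 0.33 ± 0.08 (log2 ± SE, limma adjusted p = 0.0127). This call too ended with knockdown replicate 1 or 2 left out (limma adjusted p = 0.0533 and 0.0684). NID1, a nidogen that bridges laminin and collagen IV, differed by 0.06 from a mean of 4.66.

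FN1, fibronectin, had the brightest probe set of the 44. Its log2 signals were 10.08, 10.10 and 10.16 in knockdown and 10.44, 10.46 and 10.51 in control, 2 narrow groups that do not overlap. It fell 1.28-fold (log2 -0.36 ± 0.05 SE, limma adjusted p = 0.000913). Its probe sets past the filter all end in _x_at or _s_at, the brightest in _x_at, a class that can bind other transcripts. Of its 5 probe sets past the filter, 4 fell by 0.32 to 0.36 on the log2 scale. The remaining one was at 6.17, 6.26 and 6.19 in knockdown and 6.34, 6.19 and 4.22 in control. Its difference was 0.62 with all arrays and -0.06 without control replicate 3, whose low value sets its direction.

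The SPP1 gene for osteopontin, a secreted phosphoprotein that binds alpha-v integrins and CD44, rose most of the 44. It had 9.11, 9.10 and 9.01 on the knockdown arrays and 7.62, 7.70 and 7.15 on the control arrays. The lowest knockdown array was 1.31 above the highest control array. SPP1 rose 2.997-fold (log2 1.58 ± 0.13 SE, limma adjusted p = 3.88e-05), and by 1.41 without control replicate 3, its lowest array.

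MATN2, an adaptor that links collagens and other filaments of the matrix, had 8.38, 8.46 and 8.30 in knockdown and 6.76, 6.88 and 7.01 in control, again with a wide gap. It rose 2.82-fold (log2 1.497 ± 0.09 SE, limma adjusted p = 5.78e-06). The other matrilins measured, MATN1 and MATN4, were dim and differed by 0.14 and -0.02. SPP1 and MATN2 each have a further probe set, below the filter, on which the groups overlap: for SPP1 2.43, 2.02 and 2.63 in knockdown and 2.06, 1.85 and 1.93 in control, higher on average in knockdown, and for MATN2 3.70, 3.49 and 3.07 in knockdown and 3.59, 3.53 and 3.39 in control.

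THBS1, a matricellular protein that activates latent TGF-beta, rose by a smaller amount. Its signals were 6.60, 6.87 and 6.61 in knockdown and 6.30, 6.43 and 6.17 in control, a rise of 0.39 ± 0.11 (log2 ± SE, limma adjusted p = 0.0251). It no longer passed with control replicate 1 left out (limma adjusted p = 0.0516), nor with knockdown replicate 1, 2 or 3 left out (0.0546, 0.113 and 0.0577). Of its 4 probe sets past the filter 3 were higher in knockdown, by 0.23 to 0.40, and 1 was lower by 0.24, a difference of -0.035 without control replicate 3. TNC, the anti-adhesive tenascin-C, was at 4.44 ± 0.06 in knockdown and 4.75 ± 0.17 in control (SD, n = 3 each) and did not pass (limma adjusted p = 0.0689), nor without control replicate 3 (-0.22, limma adjusted p = 0.161), though it did with control replicate 1 left out (-0.38, limma adjusted p = 0.0474). THBS3 and THBS4 differed by -0.03 and -0.05. FBLN1, a fibulin of elastic and basement membrane matrix, and the fibrillin FBN3 differed by 0.21 and 0.11, and neither passed.

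**Figure D4:**
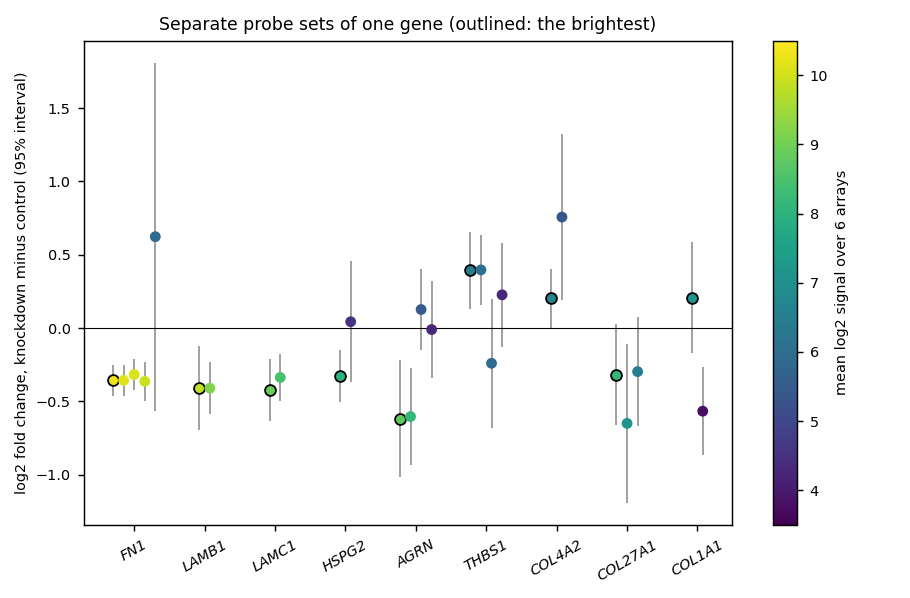
Log2 fold change (knockdown minus control, y) with 95% intervals for each probe set past the filter of 9 matrix genes (x), from a limma fit over probe sets, coloured by mean log2 signal. The bright probe sets of FN1, LAMB1 and LAMC1 lie together below 0, while AGRN, HSPG2, THBS1, FN1 and COL1A1 each have a dimmer probe set on the other side of 0 or near it.

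Across the 6 called genes with several probe sets, 9 of the 13 dimmer probe sets had the sign of the brightest. In the fit over all 32759 probe sets, in which 6.54% fell and 4.05% rose, FN1 had 4 falls among 5, LAMC1 2 of 2, LAMB1 1 of 2, HSPG2 1 of 2 and AGRN 1 of 4, and THBS1 had 1 rise among 4. LAMB2 and the brightest probe sets of AGRN, LAMB1 and THBS1 did not pass in that fit (adjusted p = 0.0687, 0.0628, 0.0789 and 0.0685).

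Among the 33 members below the filter, with means of 1.795 to 3.595, were the fibroblast collagens COL1A2 (3.37) and COL3A1 (2.74), the collagen-binding protein SPARC (2.24) and NID2 (1.87). With no filter 2 of them passed: MATN3, at 1.99, 2.23 and 1.71 in knockdown and 2.76, 2.75 and 2.49 in control (limma adjusted p = 0.00584), and COL9A1, at 3.77, 3.70 and 3.64 in knockdown and 3.38, 3.40 and 3.41 in control (limma adjusted p = 0.0497). Both lie wholly under the low-end value of 4.48.

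Promoter windows were found in RefSeq (GRCh38.p14) for 34 of the 44 members, including 8 that fell and 2 that rose. The windows of FN1, LAMB3 and SPP1 are shown because they stand for the brightest gene that fell, the laminin with the deepest fall and the gene that rose most. Capitals mark every match, on either strand, to an AP-1 site (TGANTCA), a CRE (TGACGTCA), a CCAAT box (CCAAT), a GC box (GGGCGG) and a TATA box (TATAAA). The FN1 window is chr2:215436019-215436318 on the minus strand, the LAMB3 window, that of the first of its 3 listed starts, is chr1:209652376-209652675 on the minus strand, and the SPP1 window is chr4:87975464-87975763 on the plus strand.
FN1: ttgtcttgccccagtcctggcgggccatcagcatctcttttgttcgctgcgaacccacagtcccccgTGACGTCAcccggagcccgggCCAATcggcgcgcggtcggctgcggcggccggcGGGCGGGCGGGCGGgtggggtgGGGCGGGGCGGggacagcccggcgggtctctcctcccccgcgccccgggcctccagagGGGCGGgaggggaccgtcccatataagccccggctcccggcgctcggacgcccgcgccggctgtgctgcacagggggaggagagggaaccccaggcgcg
LAMB3: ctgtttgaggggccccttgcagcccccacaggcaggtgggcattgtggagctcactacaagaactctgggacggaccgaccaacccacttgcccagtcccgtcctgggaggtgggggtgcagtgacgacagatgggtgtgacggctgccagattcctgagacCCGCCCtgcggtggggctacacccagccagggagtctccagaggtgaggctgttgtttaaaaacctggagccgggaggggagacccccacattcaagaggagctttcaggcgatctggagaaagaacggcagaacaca
SPP1: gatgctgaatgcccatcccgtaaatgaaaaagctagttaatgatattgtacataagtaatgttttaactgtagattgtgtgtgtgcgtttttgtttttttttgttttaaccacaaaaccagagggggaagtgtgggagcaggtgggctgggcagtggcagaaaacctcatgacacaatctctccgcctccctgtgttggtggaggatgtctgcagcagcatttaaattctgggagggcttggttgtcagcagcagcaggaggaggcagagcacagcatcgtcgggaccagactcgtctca
These letters differ between the genes. FN1 holds 6 GC boxes, some overlapping, with a CCAAT box and a CRE, the LAMB3 window holds a single GC box, and SPP1 holds none of the 5 motifs. The other LAMB3 windows also hold 1 GC box each, and that of the start furthest downstream holds an AP-1 site and a CCAAT box besides. A GC box was in 10 of 10 windows of the 8 genes that fell, 3 of them windows of LAMB3. It was in 69.6% of the windows of all members measured and in 45.0% of all windows. An AP-1 site was in 10.0%, 4.35% and 7.71% of the same windows. Of the 2 windows of genes that rose, 1 held a GC box. That was THBS1, with 4 GC boxes and a CCAAT box, so GC boxes did not mark the falls alone. These are matches of letters only.

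Of 28 measured genes that fold, modify, export or cross-link collagen 10 fell and 0 rose (limma), or 35.7% against the 14.3% of all genes that fell, with 13 lower and 0 higher at an unadjusted p under 0.05, and a median log2 fold change of -0.18 against -0.02 over all genes. SERPINH1, the collagen chaperone of the endoplasmic reticulum, fell by 0.46 ± 0.07 (log2 ± SE), the prolyl hydroxylase subunits P4HA1 and P4HA2 by 0.45 ± 0.09 and 0.33 ± 0.07, and SEC24D, a coat protein needed to export procollagen, by 0.56 ± 0.12. Their limma adjusted p-values were 0.00143 to 0.00793.

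Receptors for these ligands include integrins, syndecans and CD44. Of 22 measured receptor genes 8 fell and 2 rose (limma), or 36.4% and 9.09%, against 14.3% and 8.13% of all genes, with a median of -0.14. Among all genes with a mean above 6 the shares were 18.4% and 11.1%. The integrin subunits ITGAV, ITGB5 and ITGB1, which bind fibronectin, osteopontin or laminin in various pairs, fell by 0.43 ± 0.06, 0.33 ± 0.05 and 0.22 ± 0.04, and ITGB8, which pairs with alpha-v, rose by 0.54 ± 0.07 (log2 ± SE, limma adjusted p = 0.000597 to 0.00359). The osteopontin receptor CD44 rose by 0.21 ± 0.04 and the laminin receptor subunit ITGA3 fell by 0.49 ± 0.09 (log2 ± SE, limma adjusted p = 0.00807 and 0.00417), both chosen after their values were seen.

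Of 35 other matrix genes 10 fell and 2 rose, or 28.6% and 5.71% against 14.3% and 8.13% of all genes, with a median of -0.02 (limma). SMOC2, a matricellular relative of SPARC, fell by a measured 3.75-fold, with a knockdown mean of 4.04 under the low-end value that leaves the size uncertain. The proteoglycan VCAN (versican) fell 2.14-fold, ECM1 1.97-fold and the matricellular CCN1 1.81-fold (limma adjusted p = 3.29e-06 to 0.000424 over all 4). Without control replicate 3 the counts were 11 falls and 0 rises, 9 falls and 2 rises, and 10 falls and 5 rises for the collagen processing, receptor and other matrix genes.

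Markers of other cells were mixed in level. Of 11 fibroblast markers 6 were measured and 0 fell, while 2 rose, or 33.3% against 8.13% of all genes. FAP was at 5.12 in knockdown and 4.28 in control, the control level under the low-end value (log2 fold change 0.84 ± 0.13 SE). S100A4 was at 7.36 and 6.72 (0.64 ± 0.10). The limma adjusted p-values of FAP and S100A4 were 0.00193 and 0.00190. ACTA2 (5.83 in knockdown and 5.95 in control) and DCN (4.75 and 4.57) did not pass, with differences of -0.12 and 0.19. The mean level of the 6 was 5.27 to 5.37 on the knockdown arrays and 5.0 to 5.12 on the control arrays, while PDGFRB and THY1 stayed at or below the low-end value, and COL1A2 and COL3A1 below the filter. Endothelial markers (2 of 7 measured) and leukocyte markers (4 of 7) had 0 calls in limma, also without control replicate 3, and 0 genes at an unadjusted p under 0.05. The leukocyte list was not low, since LYZ, a lysozyme that some epithelia also make, stood at 12.27 in knockdown and 12.31 in control. The mean level of the 4 was 6.90 to 7.04 on the knockdown arrays and 6.81 to 6.98 on the control arrays. Of 10 colon epithelial genes 3 fell, KRT20, CDH1 and KRT19, and VIL1 rose. The 3 control probe sets of 18S ribosomal RNA were higher in knockdown by 0.79 to 1.29 (log2), beside all of these differences. The part of these shifts in the matrix genes was not tested, and a lower signal in a culture cannot tell fewer cells making a transcript from less transcript per cell.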

How the data were processed

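RNA from SW480 cells was hybridised to 6 one-colour Affymetrix arrays, and the authors deposited a log2 signal for each probe set on each array. The arrays were already on a common scale, with medians of 4.20 to 4.25. MAS5 is named, per the submitters' processing notes, with no role or version, so the summary method is not known here. The values were used without further normalization. Probe sets were named through the platform annotation, with symbols updated to the RefSeq annotation of GRCh38.p14. Those paired with 1 gene and with a mean over the 6 arrays above 3.6 were kept, and each of 14199 genes was read from its brightest probe set. A two-sided limma fit (version 3.58.1, R 4.3.3, moderated with an intensity trend) compared knockdown with control. P-values were adjusted by Benjamini-Hochberg across the 14199 genes, and the threshold was 0.05. The procedure was tested on simulated data. It recovered 3 of 50 changes of 0.3 log2, 26 of 50 of 0.5, 48 of 50 of 1 and 50 of 50 of 2. Of its 130 calls 3 were false. Far fewer genes were changed there than were called here, so these shares need not hold for the data. A gene that did not pass may still differ by a small amount. Alternatives covered scaling, the filter, the probe set rule, the variance prior, each array left out and the replicate number as a block. A fit with 1 row per probe set was added after seeing the data. The members and the gene lists were chosen with earlier results of these data known, so they are not independent of them. Named genes were PSMD10, NFIL3, every member past the threshold, COL4A2 as the promoter partner of COL4A1, up to 3 of the brightest other members of each role, and up to 4 called genes of smallest p from each neighbouring list. Genes of the marker lists, and members named for their separate probe sets or for a call without the filter, fall outside that rule and were chosen after their values were seen. The number of arrays, 3 per group, limits the precision.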

Additional observations from a re-analysis of the deposited data

How the results depend on the processing

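Of the 13 matrix genes past the threshold, 6 (SPP1, MATN2, COL4A1, LAMB3, LAMA5 and LAMC1) kept their direction and their call under every alternative that measured them, with COL4A1 not measured under the filter that drops the lowest 60%. All of these but LAMC1 have 1 probe set past the filter. For them, averaging probe sets, or avoiding those ending in _x_at or _s_at, could not change the log2 fold change. Those alternatives therefore did not test these genes. The calls of the remaining genes past the threshold were lost under 1 to 5 alternatives each. Averaging a gene's probe sets lost FN1 (-0.15, limma adjusted p = 0.306), THBS1 (0.19), AGRN (-0.28) and HSPG2 (-0.14), and lowered the called receptor genes to 6. LAMB1 was lost with no intensity trend (adjusted p = 0.0605), and AGRN turned to 0.13 with probe sets ending in _x_at or _s_at avoided. In the fit over probe sets, dimmer ones of FN1 (0.62), THBS1 (-0.24), AGRN (0.13) and HSPG2 (0.043) had the opposite sign and did not pass, and without control replicate 3 that of HSPG2 was at -0.15. With an array left out, the called counts were 1732 to 4161 of all genes, 5 to 11 falls and 2 to 4 rises among matrix genes, 5 to 13 collagen processing genes, 7 to 11 receptor genes and 7 to 15 other matrix genes. Each low end came without a knockdown array, for which the cause was not tested, and was equalled for the rises without control replicate 1 and for the receptor genes without control replicate 2. The count of 4161 genes came without control replicate 3. Median centring and quantile normalization changed no matrix call. With the replicate number as a block 3049 genes were called, with 10 falls and 3 rises among matrix genes. Deviations from the group means correlated at 0.02, 0.11 and -0.01 between same-numbered arrays, and at -0.07 to 0.05 between the others. Little variation thus followed the number, but with 3 arrays per group these values cannot exclude that the arrays were paired.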
